A study of Homo sapiens with 8 samples.

Results

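Cells expressing the RNA-binding protein TIAR were compared with cells expressing the RNA-binding protein HuR, using the 2 arrays of each line, that is 4 of the 8 arrays of the study. Both lines derive from HEK293, a human embryonic kidney line, in its Flp-In T-REx form (FT293), where a Flp recombinase places 1 transgene at a fixed genomic site and tetracycline switches it on. The transgene encoded GFP-TIAR or GFP-HuR, another line expressed GFP alone and serves here as the background measured in the same way, and RNA of all of them was taken on the third day of tetracycline treatment. Every line carried a GFP transgene and received tetracycline, so neither is a difference between them. Each protein was studied in a single line, and a property that a line had acquired before induction cannot be told apart from an effect of its transgene. The labels describe the 2 arrays of a line as independent biological replicates. The genes were chosen by detection and not by change: a probe was tested when the scanner software found its signal clearly over the background in 1 line or both, on each of that line's arrays, which kept 29054 probes and 21559 gene names.

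TIAR, encoded by TIAL1, and its relative TIA1 bind U-rich RNA, help the splicing machinery to recognize weak 5′ splice sites, and hold back the translation of bound mRNAs, in part through stress granules. HuR, encoded by ELAVL1, binds overlapping U-rich and AU-rich elements and is known mostly for stabilizing its target mRNAs and aiding their translation. A comparison of cells with much TIAR and cells with much HuR therefore sets proteins with overlapping binding sites and largely opposite known outcomes against each other.

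All 8 arrays shared 1 slide and 1 scan. Between 53.3% and 58.6% of probes were well above background on 7 arrays, against 86.1% on GFP 1, whose local background of 88.7 also exceeded the 37.2 to 43.2 of the other arrays. A low signal on GFP 1 is therefore read with GFP 2 beside it. All 17 markers fixed for HEK293 cells, such as PAX2, SALL1 and VIM, were above background on the 4 arrays compared. Of the markers of other cell types, 5 of 6 for keratinocytes, 4 of 7 for endothelium, 4 of 8 for fibroblasts, 2 of 7 for hepatocytes and 1 of 8 for blood cells were above background on none of the 4. Of the blood cell markers 4 of 8 were above background on all 4 arrays, and the summed linear signal, in units of each array's 75th percentile, was 1.10 and 1.10 with TIAR, 0.802 and 0.691 with HuR and 3.42 and 0.632 with GFP. For hepatocytes the sums were 0.283 and 0.335, 0.178 and 0.187, and 0.836 and 0.167, with 2 of 7 markers above background on all 4. The part of these cell types in the results was not tested. Throughout, a value is a log2 signal relative to the 75th percentile of its array, so that 0 is a fairly strongly expressed gene, a difference is TIAR minus HuR, and SE is the standard error of that difference from limma.

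The expressed genes themselves were examined first. The array holds a TIAL1 probe (hg19, chromosome 10 from 121336676 to 121336982, a span longer than the probe, which therefore crosses an exon junction) that overlaps the binding site of the primer used in the study to amplify TIAR cDNA. It is shown because, of the probes for the expressed genes, only this one overlaps that primer. The overlap alone does not place the probe within the transgene. Capitals mark the 15 bases shared with the start of that 18-base primer.
TIAL1 probe: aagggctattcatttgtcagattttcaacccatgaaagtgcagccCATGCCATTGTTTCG
TIAR sense primer: CATGCCATTGTTTCGgtg
This probe read 4.89 and 5.01 with TIAR, 2.48 and 2.53 with HuR and 2.06 and 2.49 with GFP, a difference of 2.44 (SE 0.10; adjusted p = 0.0037, limma). Both TIAR arrays stood above all other arrays, while the HuR and GFP arrays lay close together. A second TIAL1 probe, designed on another transcript (chromosome 10 from 121341245 to 121341304), read -4.10 and -3.83 against -3.56 and -3.61 with HuR and was not called (difference -0.38, SE 0.13; adjusted p = 0.095, limma).

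TIA1 was lower where TIAR was expressed. Its probe with the larger signal (chromosome 2 from 70436698 to 70436757) read -1.75 and -1.34 with TIAR, -0.02 and 0.07 with HuR and -0.04 and 0.20 with GFP. Only the TIAR arrays were low among these 6, and the difference of -1.57 (SE 0.17; adjusted p = 0.0088, limma) was called. The other TIA1 probe differed by -0.54 (SE 0.13; adjusted p = 0.041, limma), which is under 2-fold. ELAVL1, measured by 1 probe on chromosome 19 from 8028279 to 8028338, read 0.25 and 0.84 with TIAR, 0.35 and 0.43 with HuR and 1.09 and 0.94 with GFP. These arrays of TIAR and HuR overlapped (difference 0.16, SE 0.23; adjusted p = 0.62, limma), and the difference was -0.14 without TIAR 2. The sources used here do not settle whether the HuR transgene contains the stretch that this probe binds, so the probe is no check of the HuR label.

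Of the 21559 genes tested, 1616 (7.5%) were called higher and 590 (2.74%) lower in cells expressing TIAR than in those expressing HuR, where a call needed a change of 2-fold or more together with a limma p under 0.05 after Benjamini-Hochberg adjustment. Higher calls thus made up 73.3% of all calls, a split that was 60.2% after quantile normalization and 63.7% in the authors' normalized values. Passing detection through 1 line alone favors a difference in that direction, without forcing a call. Of 398 genes above background on neither HuR array, 335 were called higher. Of 339 genes above background on neither TIAR array, 100 were called lower. Among the 19821 genes measured on all 4 arrays, 1170 (5.9%) were higher and 456 (2.3%) lower. The median difference over all genes tested was 0.07, and the median size of a difference, whatever its sign, was 0.34. Leaving out HuR 1 gave 540 higher and 61 lower genes, leaving out HuR 2 gave 458 and 60, and leaving out TIAR 2 gave 1628 and 994. Among protein-coding genes 1028 of 14554 were higher and 389 lower, and among lncRNAs 73 of 846 were higher and 40 lower. Of all called genes, 2021 are on none of the lists of this comparison that accompany the paper.

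The GFP arrays lay with neither line throughout. Both GFP arrays lay nearer the TIAR mean for 497 of the 1616 higher genes (30.8%), nearer the HuR mean for 474 (29.3%), and 1 on each side for 641. Of the 590 lower genes, both lay nearer TIAR for 114 (19.3%), nearer HuR for 281 (47.6%) and split for 195. By GFP 2 alone the shares nearer HuR were 62.3% and 66.6%. Among the higher genes measured on all 4 arrays, both GFP arrays lay nearer TIAR for 31.2% and nearer HuR for 33.4%. For the lower genes measured on all 4 arrays these shares were 21.7% and 46.3%. These are descriptions, since the GFP arrays were not tested against either line.

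Some of the differences followed chromosomes. Among the 15237 genes with a RefSeq name and a mapped probe that were measured on all 4 arrays, the median difference was 0.52 on chromosome 20 and -0.23 on chromosome 13, and it lay between -0.15 and 0.18 on every other chromosome. On chromosome 20, 76 of 412 genes were higher and 0 lower, and 85.2% of its genes had a difference above 0. The shift ran along the whole chromosome: in each of its 7 pieces of 10 Mb the median lay between 0.45 and 0.65. HuR-expressing cells stood apart here, since the median deviation of its genes from the mean of all 8 arrays was -0.37 on HuR 1 and -0.39 on HuR 2 and between -0.03 and 0.20 on the other 6 arrays.

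The same held for parts of 3 other chromosomes, picked, like chromosome 20, after their values were seen. On chromosome 17 from 20 to 40 Mb (hg19), 32 of 213 genes were higher and 1 lower, with a median of 0.46, and again the HuR arrays were low (-0.32 and -0.35) against 0.04 to 0.15 on the others. On chromosome 16 from 60 to 90 Mb, 40 of 218 genes were higher and 2 lower, with a median of 0.50. There TIAR arrays read 0.27 and 0.27 and GFP arrays 0.02 and 0.25, HuR arrays -0.22 and -0.26 and TIA1 arrays -0.15 and -0.18, so the HuR and TIA1 lines were both low. On chromosome 13 from 70 to 110 Mb the direction was opposite, with 18 of 65 genes lower, 1 higher and a median of -0.79, and the TIAR arrays were the low ones (-0.62 and -0.72) against 0.07 to 0.36 on the other 6. Under normexp, quantile normalization and the authors' values the 4 medians kept their signs, from 0.475 to 0.50 on chromosome 20, from 0.36 to 0.43 on chromosome 17, from 0.48 to 0.50 on chromosome 16 and from -0.86 to -0.65 on chromosome 13. Outside the 4 stretches the largest median of a piece with 10 or more genes was 0.41 in size, on chromosome 6, and 5.07% of 14329 genes were higher and 2.48% lower with a median of 0.02. With the genes of the 4 stretches removed, a count added after seeing the data, 1395 genes were higher and 558 lower. What moved these stretches was not tested.

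**Figure D1:**
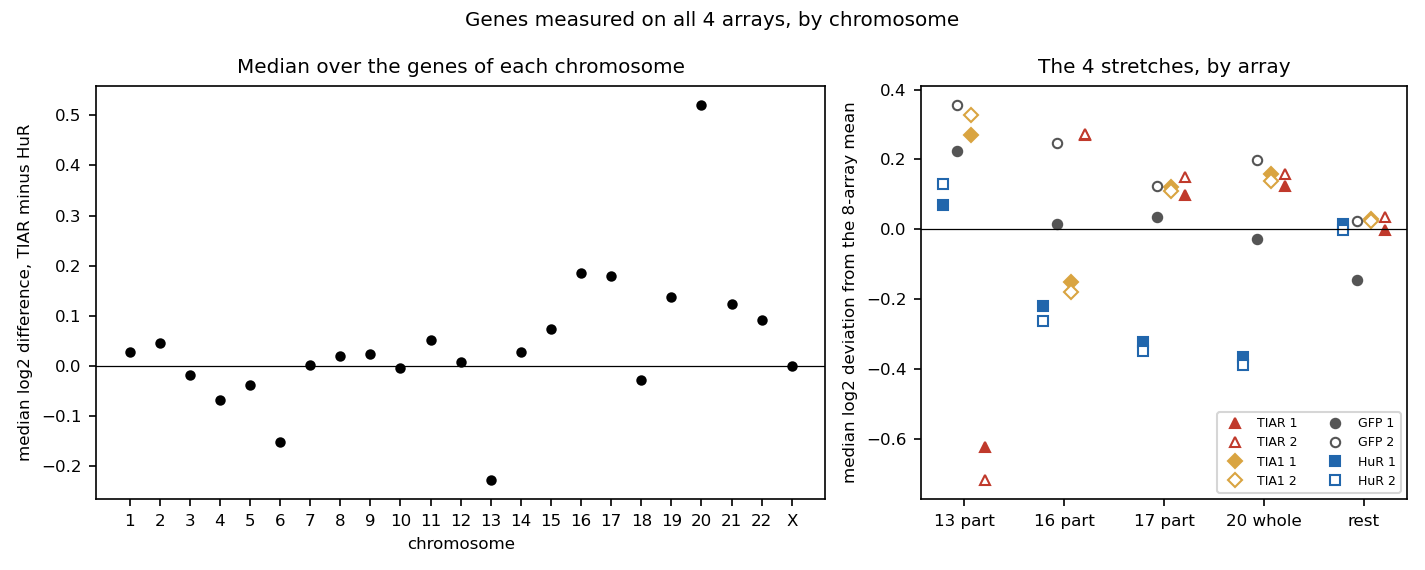
Left, the median log2 difference (TIAR minus HuR) over the genes of each chromosome measured on all 4 arrays. Right, for the parts of chromosomes 13, 16 and 17 named in the text, for chromosome 20 and for all other genes, the median log2 deviation from the mean of the 8 arrays, 1 symbol per array. Chromosome 20 stands highest at 0.52, HuR arrays are the low ones there (-0.37 and -0.39), and TIAR arrays are the low ones in the chromosome 13 part (-0.62 and -0.72).

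Genes of these stretches include several with known roles, chosen here after their values were seen. On chromosome 20, FOXA2, a pioneer transcription factor of endoderm, read -0.07 and 0.44 with TIAR, -2.89 and -3.03 with HuR and -0.55 and -0.40 with GFP. The translation elongation factor EEF1A2 read 4.55 and 5.21 with TIAR, 2.36 and 2.13 with HuR and 3.04 and 4.00 with GFP. E2F1, which drives entry into S phase, read 3.13 and 3.15 with TIAR, 1.66 and 1.67 with HuR and 2.10 and 2.30 with GFP. For all 3, the TIAR arrays were above the HuR arrays with no overlap (3.14, 2.63 and 1.48 on the log2 scale), and the GFP arrays lay between the lines for each of them. On chromosome 13, BIVM read -0.79 and -0.81 with TIAR, 1.16 and 1.07 with HuR and 1.27 and 1.60 with GFP, and the tripeptidyl peptidase gene TPP2, which trims peptides after the proteasome, read 0.40 and 0.40 with TIAR, 1.71 and 1.67 with HuR and 1.59 and 1.89 with GFP. In both, the TIAR arrays were the low ones (differences -1.91 and -1.29). UCHL3, an enzyme that removes ubiquitin, and SPRY2, a feedback inhibitor of receptor tyrosine kinases, were likewise lower (-1.21 and -1.09), with both GFP arrays nearer HuR for each.

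The strongest fitted changes among genes measured on all 4 arrays and absent from the paper's lists are described next, with 12 genes called higher. ZNF671, a KRAB zinc finger gene, read -2.40 and -2.13 with TIAR, -5.33 and -5.27 with HuR and -4.29 and -6.69 with GFP. It was higher in TIAR-expressing cells (8.16-fold; SE 0.13 on the log2 scale; adjusted p = 0.0037, limma), and the HuR and GFP arrays were all low. PCDH8, a protocadherin of neural tissue, read -2.0 and -1.76 with TIAR, -4.94 and -4.70 with HuR and -5.69 and -5.25 with GFP. The TIAR arrays alone were high (7.69-fold; SE 0.15 on the log2 scale; adjusted p = 0.0037, limma), and its gene lies on chromosome 13 outside the stretch described above. COL2A1, the collagen of cartilage, read -2.74 and -2.86 with TIAR, -5.65 and -5.73 with HuR and 1.31 and 1.95 with GFP. It was higher with TIAR than with HuR (7.41-fold; SE 0.10 on the log2 scale; adjusted p = 0.0036, limma), and both GFP arrays stood above both lines. GDAP1L1 and SLPI, a secreted inhibitor of neutrophil elastase, were higher by 2.94 and 2.78 and lie on chromosome 20. HPCA, a neuronal calcium sensor, was higher by 2.59, and the GFP arrays (-4.39 and -3.97) lay between the lines. SLFN12 and SRCIN1, an inhibitor of the kinase SRC, were higher by 2.46 and 2.39 and lie in the chromosome 17 stretch. The receptor phosphatase PTPRH, the netrin gene NTN5, the pseudogene A2MP1 and the antisense RNA EPCIP-AS1 were higher by 2.43, 2.42, 2.41 and 2.48. For NTN5 and A2MP1 both GFP arrays lay with HuR. The call of A2MP1 was lost without HuR 1 and also without HuR 2. Values fell short of 2-fold (log2 difference in brackets) in the authors' values for HPCA (0.97), SLFN12 (0.99), NTN5 (0.83), A2MP1 (0.97). Adjusted p-values were above the threshold (limma, in brackets) with 8 arrays in 1 fit for ZNF671 (0.0511), PTPRH (0.17), EPCIP-AS1 (0.055).

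In the other direction, 11 genes are described. KATNBL1, a partner of the microtubule-severing katanin, read -3.99 and -3.94 with TIAR, -2.27 and -2.21 with HuR and -2.51 and -2.14 with GFP. Here the TIAR arrays were the low ones, with GFP at the HuR level (difference -1.72). MAP2, which stabilizes dendritic microtubules, read -2.56 and -3.01 with TIAR, -1.05 and -0.96 with HuR and -2.48 and -2.36 with GFP, so that HuR was high and GFP close to TIAR (-1.78). IFI44L, an interferon-induced gene, differed by -1.76 with both GFP arrays (-6.36 and -7.46) under both lines. PLA2G7, a secreted phospholipase that inactivates platelet-activating factor, the cation transporter gene SLC22A4 and the cancer-testis gene ACTL8 differed by -2.08, -1.77 and -1.86, with both GFP arrays nearer HuR. The remaining 5 were FAM86B1 (-1.74), its relative FAM86FP (-1.65), the adhesion molecule SDK2 (-1.73), the ciliary gene RPGRIP1L (-1.69) and the small nucleolar RNA SNORD35B (-1.60). FAM86B1 and FAM86FP belong to a family of near-identical copies whose probes may share transcripts. With 1 array fewer, genes missed the threshold (limma adjusted p in brackets) without HuR 1 MAP2 (0.063), IFI44L (0.093), PLA2G7 (0.066), ACTL8 (0.078), SDK2 (0.059), RPGRIP1L (0.063), SNORD35B (0.0512), and without HuR 2 MAP2 (0.071), IFI44L (0.088), PLA2G7 (0.068), ACTL8 (0.077), FAM86B1 (0.056), RPGRIP1L (0.067), SNORD35B (0.0516). Differences were under 2-fold (log2 difference in brackets) with normexp for SLC22A4 (-0.79), SDK2 (-0.66), RPGRIP1L (-0.87). In other fits calls were lost (limma adjusted p in brackets) with 8 arrays in 1 fit for IFI44L (0.059), SLC22A4 (0.26), FAM86B1 (0.18), and without the filter on dim probes for IFI44L (0.059), SDK2 (0.06).

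**Figure D2:**
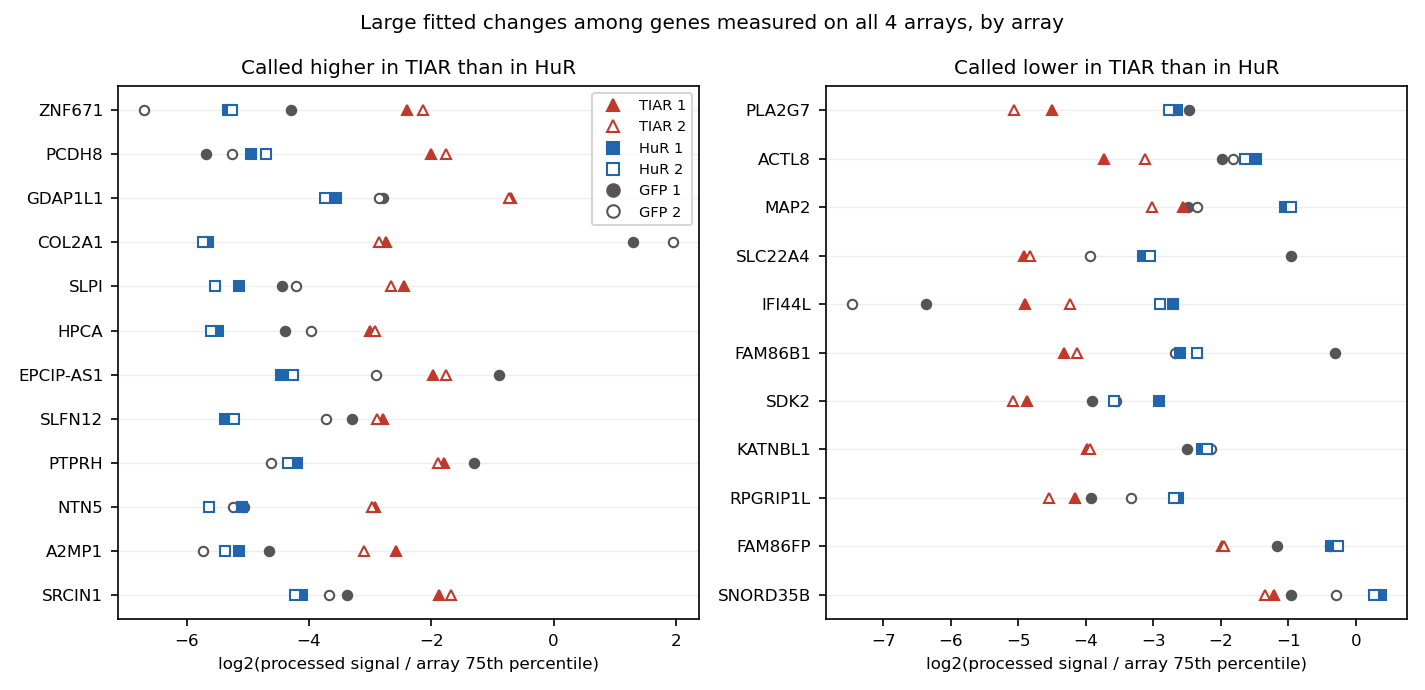
Log2 signal relative to the array's 75th percentile for 12 genes with large changes called higher and 11 called lower, 1 symbol per array (filled, replicate 1; open, replicate 2). TIAR and HuR arrays do not overlap for any of these genes, and the GFP arrays lie with HuR for some (PCDH8, NTN5), with TIAR for MAP2 and outside both lines for COL2A1.

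Some genes were above background in 1 line only, so their difference has a lower bound. Such genes passed detection through 1 line alone, which favors a difference, and the bound itself was not tested. The bound sets the mean of the line that expressed the gene against the lowest signal that counted as well above background on each array of the other line, or against the gene's own signal where that was higher. The muscarinic acetylcholine receptor gene CHRM2 read -2.67 and -2.71 with TIAR and was not well above background with HuR (-6.11 and -6.02), at least 9.67-fold higher. GFP arrays read -3.81 and -5.32. By the same measure the matrix protease ADAMTS18, in the chromosome 16 stretch, was at least 9.58-fold and the bradykinin receptor BDKRB1 at least 9.48-fold higher. The aldo-keto reductase AKR1C3, which makes active androgens, was at least 9.09-fold and the dynein chain DNAI1 of motile cilia at least 8.78-fold higher. For all these genes the TIAR arrays lay between -2.92 and -2.60, low on the scale. AKR1C1 to AKR1C3 are near-identical genes whose probes can share transcripts. In the other direction the bounds were smaller: the homeobox gene HDX was at least 3.7-fold lower in TIAR-expressing cells, the membrane protein VSTM2A at least 3.41-fold, the olfactory receptor OR51E2 at least 3.32-fold, the ecto-nucleotidase NT5E at least 3.17-fold, the pluripotency factor NANOG at least 3.07-fold and LY6S-AS1 at least 3.02-fold. NANOG read -6.79 and -7.61 with TIAR, -4.24 and -4.05 with HuR and -3.16 and -4.36 with GFP, with the TIAR arrays alone low. Calls were lost (limma adjusted p in brackets) without TIAR 1 VSTM2A (0.088), and without TIAR 2 VSTM2A (0.086), and without HuR 1 NT5E (0.1), NANOG (0.057), and without HuR 2 NT5E (0.11), NANOG (0.066). Values fell short of 2-fold (log2 difference in brackets) with normexp for VSTM2A (-0.75), OR51E2 (-0.88), NT5E (-0.62), NANOG (-0.82), LY6S-AS1 (-0.92). The limma threshold was missed (adjusted p in brackets) in the authors' values for VSTM2A (0.082), and with 8 arrays in 1 fit for VSTM2A (0.12), NT5E (0.16), LY6S-AS1 (0.089), and without the filter on dim probes for VSTM2A (0.11), NT5E (0.067).

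Gene groups were then described through 31 lists, counting the members measured on all 4 arrays, because passing detection through 1 line alone favors a difference. Over all 19821 genes measured on all 4 arrays, 5.9% were higher and 2.3% lower, with a median difference of 0.07, and the shares below are read against these. Weakly expressed genes were called more often: of the 4956 genes with the lowest mean signal 10.9% were higher and 1.88% lower, and of the 4955 with the highest 1.51% and 1.37%. Counts of every list with a call fell or stayed level without HuR 1 and without HuR 2, and they are given below over all tested members of the lists described most closely.

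**Figure D3:**
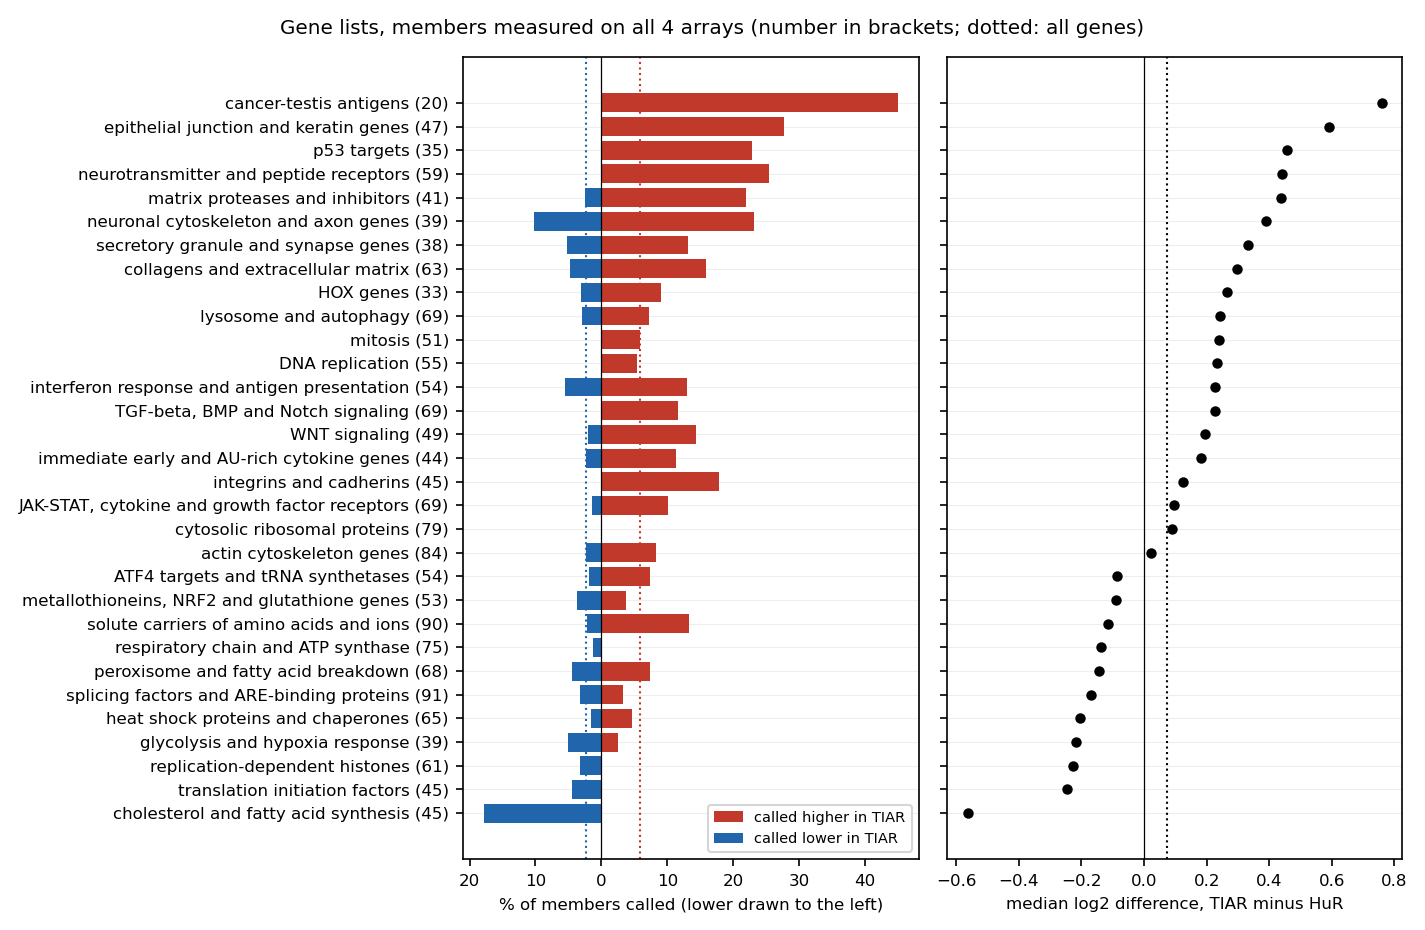
Left, the percentage of each list's members measured on all 4 arrays (number in brackets) called higher (red) or lower (blue, drawn to the left) in TIAR-expressing cells, with dotted lines at 5.9% and 2.3% for all genes. Right, each list's median log2 difference, with a dotted line at the median of all genes, 0.07. Cancer-testis antigens stand at one end with a median of 0.76 and cholesterol and fatty acid synthesis at the other with -0.56.

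In cholesterol and fatty acid synthesis, all genes that were called were lower with TIAR than with HuR. Of 46 genes on the list, 45 were tested, all of them measured on all 4 arrays: 8 (17.8%) were lower, 0 higher, and 37 of 45 had a difference under 0, with a median of -0.56. INSIG1, which holds the sterol sensor in the endoplasmic reticulum, read 2.30 and 2.23 with TIAR, 3.86 and 3.82 with HuR and 2.79 and 3.11 with GFP. The order TIAR, GFP, HuR held for all 6 arrays, and the difference between TIAR and HuR was 2.98-fold (SE 0.10 on the log2 scale; adjusted p = 0.0043, limma). HMGCS1, the HMG-CoA synthase of the mevalonate pathway, read 2.06 and 1.85 with TIAR, 3.29 and 3.15 with HuR and 2.51 and 2.78 with GFP, and IDI1, which isomerizes isopentenyl diphosphate, read 2.24 and 2.25 with TIAR, 3.44 and 3.54 with HuR and 2.82 and 3.04 with GFP. Again GFP lay between the lines, and the differences were -1.27 and -1.25. The squalene epoxidase gene SQLE read 1.95 and 1.74 with TIAR, 2.83 and 2.89 with HuR and 1.90 and 2.06 with GFP. For SQLE and for ACSL3, which activates long-chain fatty acids, both GFP arrays lay nearer the TIAR mean, so the HuR arrays were the ones set apart (differences of -1.01 and -1.08). SC5D, the sterol desaturase, differed by -1.11 with GFP above both lines. Genes of the same pathway that were not called included LSS (-0.96), SREBF1 (-0.89), FDFT1 (-0.87), FDPS (-0.86), SREBF2 (-0.75) and FASN (-0.54). None of the 8 called genes lies in the 4 chromosome stretches, and the median stayed between -0.60 and -0.50 under the other normalizations, where 4 to 7 genes were called. Without HuR 1 the list had 1 lower gene, and without HuR 2 it had 0 by limma, with medians of -0.60 and -0.58. The calls of HMGCS1 and IDI1 were lost without HuR 1 and also without HuR 2, and that of INSIG1 without HuR 2. In these fits the TIAR arrays alone give the spread. Over all alternatives the differences lay between -1.37 and -1.07 for HMGCS1, -1.30 and -1.175 for IDI1 and -1.61 and -1.265 for INSIG1.

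**Figure D4:**
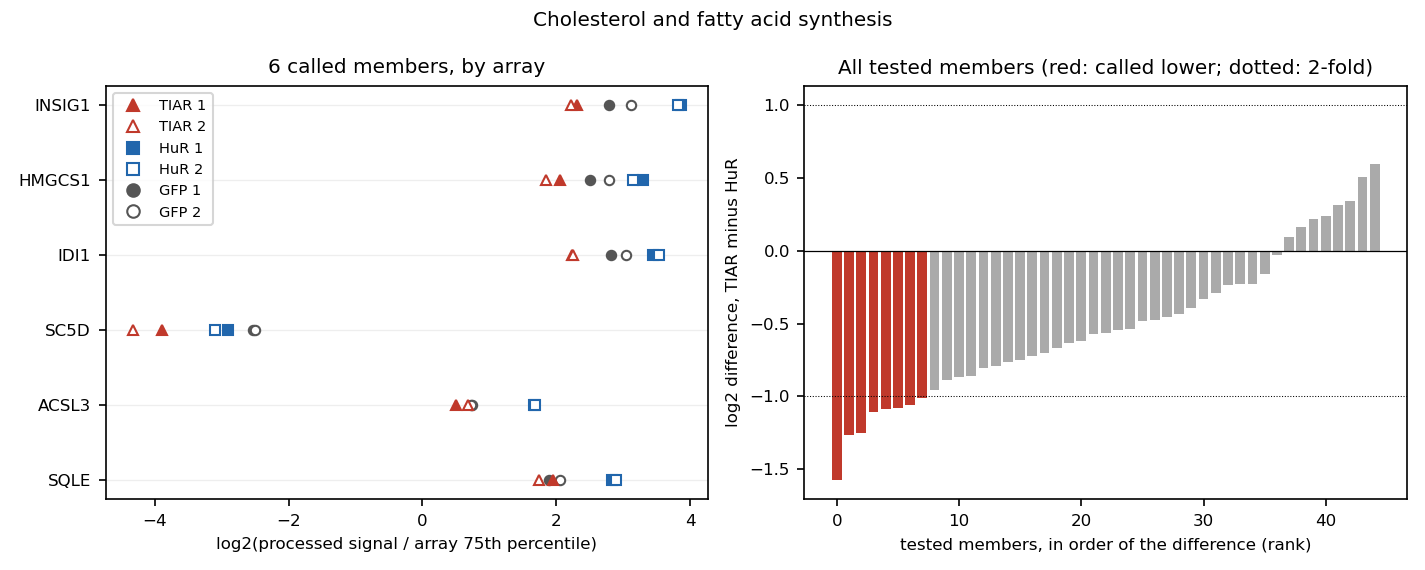
Left, log2 signal by array of 6 called members of the cholesterol and fatty acid synthesis list (filled, replicate 1; open, replicate 2). Right, the log2 difference (TIAR minus HuR) of all 45 tested members in rank order, red where called lower, with dotted lines at a 2-fold difference. HuR arrays are the highest for every member drawn there except SC5D, where the GFP arrays are, and 37 of the 45 bars point down.

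Among targets of the tumor suppressor p53, all genes that were called were higher in TIAR-expressing cells. Of 40 genes, 38 were tested and 35 measured on all 4 arrays, of which 8 (22.9%) were higher and 0 lower, with a median of 0.46. EDA2R, a member of the TNF receptor family, read -1.59 and -1.11 with TIAR and -2.68 and -2.24 with GFP. It was not well above background with HuR (-5.81 and -6.15), a difference of at least 24.3-fold. SFN, the 14-3-3 sigma protein that arrests cells in G2, read 0.83 and 1.63 with TIAR, -0.69 and -0.97 with HuR and -0.37 and 0.14 with GFP. The TIAR arrays were the highest although they differed from each other by more than the HuR arrays did (4.15-fold; SE 0.31 on the log2 scale; adjusted p = 0.016, limma). IGFBP3, which binds insulin-like growth factors, was at least 4.22-fold higher with TIAR, at a TIAR signal of only -4.00 and -3.85. The apoptosis genes BAX (1.41) and BBC3 (1.02), the repair gene DDB2 (1.65), GADD45B (1.70), TP53INP1 (1.99), PIDD1 (1.54) and PHLDA3 (1.18) were the other members called higher. The paper already described BAX, PUMA (encoded by BBC3), GADD45B and CDKN1A as upregulated, with moderate changes in CDKN1A mRNA. CDKN1A is not among the members called here. No called member lies in the 4 stretches, and 10 members were also called higher under quantile normalization, normexp and the authors' values, against 4 without HuR 1 and 4 without HuR 2. With 1 array fewer, genes missed the threshold (limma adjusted p in brackets) without HuR 1 SFN (0.079), and without HuR 2 SFN (0.1). In other fits calls were lost (limma adjusted p in brackets) without the filter on dim probes for SFN (0.06).

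Called cancer-testis antigens, genes normally silent outside the germ line, were all higher with TIAR. Of 62 genes, 51 were on the array, 26 were tested and 20 measured on all 4 arrays, of which 9 (45%) were higher and 0 lower, with a median of 0.76. MAGEA2B read 0.21 and 0.04 with TIAR, -5.48 and -5.45 with HuR and -4.39 and -6.37 with GFP. The TIAR arrays were near the 75th percentile while all 4 other arrays were dim (48.2-fold; SE 0.11 on the log2 scale; adjusted p = 0.0023, limma). MAGEA12 read -0.73 and -0.97 with TIAR and was not well above background with HuR (-6.17 and -6.12), at least 35.7-fold higher, with GFP arrays at -3.03 and -6.58. CSAG2 was at least 17.7-fold higher, and MAGEA6 (3.06) and CSAG1 (2.76), which lie near them on the X chromosome, were higher as well. The PAGE2 and CTAG genes differed by less, from 1.22 for CTAG2 to 1.55 for PAGE2, and PRAME, measured on the same arrays, differed by -0.07 and was not called. MAGEA, CSAG, PAGE and CTAG genes are families of near-identical copies whose probes may not separate the members. Of all tested members 14 were higher, 7 without HuR 1, 8 without HuR 2 and 6 in the authors' values. Their median was 1.31 over all tested members and 0.26 in the authors' values, where p53 targets (0.52) and epithelial genes (0.43) stood higher.

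Receptors for neurotransmitters and peptides were called in the same direction. Of 103 genes, 67 were tested and 59 measured on all 4 arrays, of which 15 (25.4%) were higher and 0 lower, with a median of 0.44, although in the authors' values the median of the tested members was 0.085. The muscarinic receptor CHRM3 read -1.53 and -1.33 with TIAR, -5.11 and -4.74 with HuR and -0.53 and -3.57 with GFP. The HuR arrays were the lowest and the GFP arrays disagreed with each other, GFP 1 above and GFP 2 below the TIAR arrays (11.2-fold; SE 0.17 on the log2 scale; adjusted p = 0.0037, limma). GABRE, a subunit of GABA-A receptors, was higher by 3.59 and showed the same split between GFP arrays (-0.85 and -4.43), but it was above background on only 1 of the 2 HuR arrays (-6.39 and -5.82) and is not among the 59. The bradykinin receptor BDKRB2 (2.59), the prostaglandin receptor PTGFR (3.26), the sphingosine receptor S1PR5 (2.37), the dopamine receptor DRD2 (2.31) and the glutamate receptor subunits GRIK3 (1.75) and GRIN2D (1.5) were also higher. Over all tested members 21 were higher, 13 without HuR 1 and 12 without HuR 2. Adjusted p-values were above the threshold (limma, in brackets) with 8 arrays in 1 fit for CHRM3 (0.066), GABRE (0.09).

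Neuronal and secretory genes were mixed in direction. Of 39 cytoskeletal and axonal genes measured on all 4 arrays, 9 (23.1%) were higher and 4 (10.3%) lower. The neurofilament chains went opposite ways: NEFH read -1.73 and -1.61 with TIAR, -4.93 and -4.60 with HuR and -3.39 and -4.82 with GFP, and NEFL read 1.27 and 1.46 with TIAR, 3.02 and 3.06 with HuR and 1.80 and 2.21 with GFP. TIAR arrays were the highest for NEFH (3.09) and the lowest for NEFL (-1.68), and GFP lay between the lines for NEFL. NFASC, an adhesion molecule of axon initial segments (3.30), and MAP7D2 (2.21) were higher, while MAP2 and CNTNAP2 (-1.22) were lower. Of 38 secretory granule and synapse genes, 5 (13.2%) were higher and 2 (5.26%) lower. SNAP25, a SNARE of vesicle fusion on chromosome 20, read 0.68 and 0.72 with TIAR, -1.53 and -1.61 with HuR and -0.50 and -0.24 with GFP, with HuR low and GFP between (2.27). The granin CHGA was higher (2.16). The prohormone convertase PCSK1 (2.88) and the granin CHGB (2.54), which lies on chromosome 20, were called higher as well. Each was above background on 1 of the 2 HuR arrays and is not among the 38. The synaptic adhesion molecule NLGN1 was lower (-1.41). Without HuR 1 and without HuR 2 the cytoskeletal list had 5 higher and 0 lower, and the secretory list, with 12 higher and 2 lower over all tested members, had 7 and 0. Calls were lost (limma adjusted p in brackets) without HuR 1 NEFL (0.0506), CNTNAP2 (0.095), NLGN1 (0.11), and without HuR 2 NEFL (0.0544), CNTNAP2 (0.12), NLGN1 (0.17), and without TIAR 2 CNTNAP2 (0.022, with a log2 difference of -0.97). Differences were under 2-fold (log2 difference in brackets) in the authors' values for CHGB (0.94). In other fits calls were lost (limma adjusted p in brackets) with 8 arrays in 1 fit for PCSK1 (0.057), NLGN1 (0.0504), and without the filter on dim probes for CNTNAP2 (0.072), NLGN1 (0.1).

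Called genes of epithelial junctions and keratins were all higher with TIAR. Of 64 genes, 50 were tested and 47 measured on all 4 arrays, of which 13 (27.7%) were higher and 0 lower, with a median of 0.59. RAB17, a GTPase of polarized membrane traffic, read -1.5 and -1.46 with TIAR, -4.12 and -4.22 with HuR and -1.80 and -2.31 with GFP. HuR arrays were low and GFP near TIAR (6.46-fold; SE 0.10 on the log2 scale; adjusted p = 0.0036, limma). The membrane protease PRSS8 (2.31), its inhibitor SPINT1 (1.82), the claudin CLDN3 (1.73) and the transcription factor GRHL1 (1.5) were higher. E-cadherin, encoded by CDH1 (1.10), plakoglobin, encoded by JUP (1.98), KRT19, PARD6A and KRT17 (above background with TIAR only, at least 2.22-fold) were higher too, and these 5 lie in the chromosome 16 and 17 stretches. Over all tested members 16 were higher, 6 without HuR 1 and 6 without HuR 2. The limma threshold was missed (adjusted p in brackets) with 8 arrays in 1 fit for PRSS8 (0.079). The summed linear signal of the 6 keratinocyte markers, in units of each array's 75th percentile, was 14.9 and 14.2 with TIAR, 10.3 and 10.9 with HuR and 14 and 15.5 with GFP, nearly all of it from KRT10, while KRT5, KRT14, KRT1, TP63 and DSG3 were not above background on any of the 4 arrays. Its part in the counts was not tested.

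Matrix genes and their proteases had more higher than lower members. Of 63 collagen and matrix genes, 10 (15.9%) were higher and 3 (4.76%) lower, and of 41 proteases and inhibitors 9 (22%) were higher and 1 lower. COL5A2, a fibrillar collagen chain, read -1.60 and -1.58 with TIAR, -4.42 and -4.11 with HuR and -3.21 and -3.06 with GFP, with GFP between the lines and nearer HuR (2.68). The basement membrane chains LAMA1 (-1.15) and COL4A5 (-1.27) and the glycoprotein TNC (-1.37) were lower. MMP24 on chromosome 20 (2.36), ADAMTS10 (2.07) and the urokinase receptor PLAUR (1.34) were higher, and TIMP3, an inhibitor of metalloproteases, was lower (-1.12). MMP11 was called higher (2.10) but was above background on 1 of the 2 HuR arrays and is not among the 41. Among 45 integrins and cadherins 8 (17.8%) were higher and 0 lower. PCDH20 read -0.98 and -1.24 with TIAR, -5.26 and -5.36 with HuR and -4.28 and -4.68 with GFP, so that TIAR alone was high (18.4-fold; SE 0.13 on the log2 scale; adjusted p = 0.0031, limma), and the integrin chain ITGB3, above background with HuR only, was at least 1.58-fold lower with TIAR. Without HuR 1 and without HuR 2, the matrix list, 13 higher over all tested members, had 4 and 4, the protease list, 12 higher, had 8 and 7, and the adhesion list, 9 higher, had 7 and 6. The summed linear signal of the 8 fibroblast markers was 1.10 and 0.881 with TIAR, 0.674 and 0.674 with HuR and 2.85 and 0.279 with GFP, with 4 of the markers above background on none of the 4 arrays, and its part in the matrix counts was not tested. The calls of LAMA1, COL4A5, TNC and TIMP3 were lost without HuR 1 and also without HuR 2, and that of ITGB3 without HuR 1. COL4A5 was also lost without TIAR 1, with a log2 difference of -0.98. Differences were under 2-fold (log2 difference in brackets) with normexp for TIMP3 (-0.96), ITGB3 (-0.29), and in the authors' values for MMP11 (0.56), TIMP3 (-0.81), ITGB3 (-0.83). Adjusted p-values were above the threshold (limma, in brackets) with 8 arrays in 1 fit for MMP11 (0.15), and without the filter on dim probes for COL4A5 (0.076).

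Several genes were far lower in HuR-expressing cells, with TIAR and GFP at a similar level. DECR1, the mitochondrial dienoyl-CoA reductase needed to break down unsaturated fatty acids, read -1.19 and -1.22 with TIAR and -1.37 and -1.02 with GFP. It was not well above background with HuR (-7.12 and -8.32), at least 27.9-fold apart. MYD88, the adaptor of Toll-like and interleukin-1 receptors, read 0.48 and 0.26 with TIAR, -2.90 and -3.01 with HuR and 0.48 and 0.49 with GFP. TIAR and GFP arrays overlapped and the HuR arrays were the low ones (10-fold; SE 0.12 on the log2 scale; adjusted p = 0.0036, limma). The actin-bundling LCP1 and the microfibril protein MFAP2 had the same pattern with larger sizes (7.79 for LCP1, and at least 123-fold for MFAP2). So did the peptide transporter SLC15A1 (-1.74 and -1.80 with TIAR, -6.31 and -5.06 with HuR, -2.31 and -1.96 with GFP). It was above background on 1 of the 2 HuR arrays and lies in the chromosome 13 stretch, where most genes were lower with TIAR. The dehydrogenase DHRS2 read 3.19 and 3.22 with TIAR, 0.09 and -0.01 with HuR and 0.86 and 0.30 with GFP. It shows the other pattern, with TIAR high and GFP near HuR (8.96-fold; SE 0.10 on the log2 scale; adjusted p = 0.0031, limma).

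**Figure D5:**
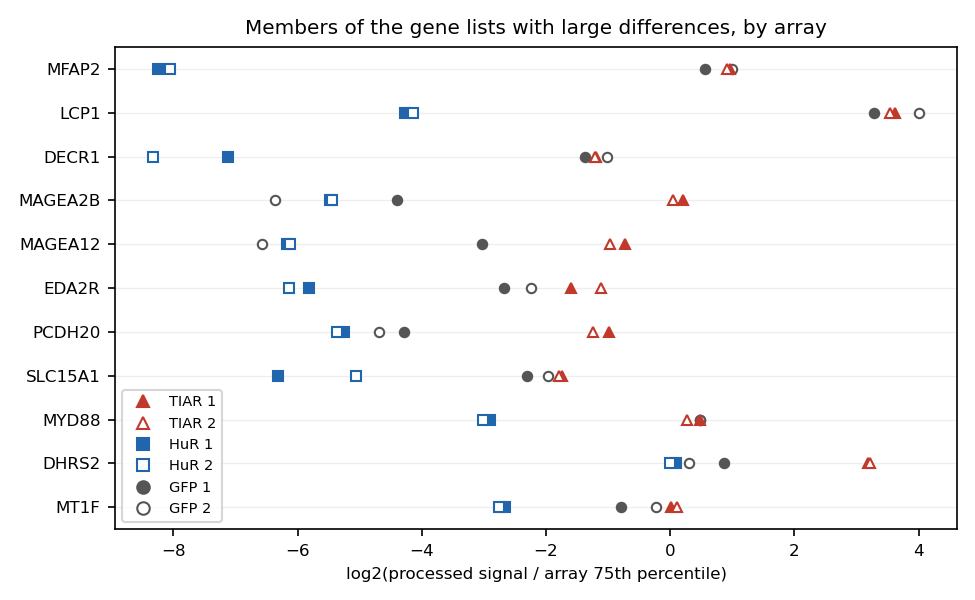
Log2 signal relative to the array's 75th percentile for members of the gene lists with large differences, 1 symbol per array (filled, replicate 1; open, replicate 2). For MFAP2, LCP1, DECR1, SLC15A1 and MYD88 the GFP arrays lie near TIAR, and for MAGEA2B, PCDH20 and DHRS2 they lie nearer HuR.

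Of 44 immediate early and AU-rich cytokine genes, a class whose mRNAs carry the elements both proteins bind, 5 (11.4%) were higher and 1 (2.27%) lower. MYC read 1.75 and 1.91 with TIAR, 3.39 and 3.42 with HuR and 2.72 and 3.06 with GFP. TIAR arrays were the lowest and GFP lay between, nearer HuR (2.99-fold lower; SE 0.11 on the log2 scale; adjusted p = 0.005, limma). PIM1, a survival kinase, read 2.16 and 2.16 with TIAR, 0.30 and 0.32 with HuR and 0.56 and 0.16 with GFP, with TIAR alone high (1.85). PTGS2, the inducible cyclooxygenase, was lower (-5.52 and -5.80 against -3.96 and -4.18, with GFP at -5.63 and -5.84) but above background on 1 of the 2 TIAR arrays and thus not among the 44, and IL11 was above background with TIAR only, at least 6.71-fold higher. ZFP36, which binds AU-rich elements and directs decay, was higher (1.42) with both GFP arrays at the HuR level, and HNRNPDL was lower (-1.63). Of 54 interferon response and antigen presentation genes, 7 (13%) were higher, led by MYD88, IFI30 (2.36) and DHX58 (1.53), and 3 (5.56%) were lower, HLA-DOA (-2.16), IFI44L and TAP2 (-1.22). Over all tested members, the cytokine list had 7 higher and 2 lower, against 3 and 0 without HuR 1, 3 and 0 without HuR 2, 7 and 1 with normexp and 3 and 1 in the authors' values. The interferon list likewise had 9 higher and 3 lower, against 3 and 1 without HuR 1, 3 and 1 without HuR 2, 4 and 3 with normexp and 2 and 2 in the authors' values. With 1 array fewer, genes missed the threshold (limma adjusted p in brackets) without HuR 1 MYC (0.0512), PTGS2 (0.06), ZFP36 (0.0501), HNRNPDL (0.056), DHX58 (0.0542), TAP2 (0.056), and without HuR 2 MYC (0.055), PTGS2 (0.058), ZFP36 (0.058), HNRNPDL (0.074), DHX58 (0.062), TAP2 (0.063). Differences were under 2-fold (log2 difference in brackets) with normexp for PTGS2 (-0.46), and in the authors' values for PTGS2 (-0.91), IL11 (0.98), DHX58 (0.67), TAP2 (-0.93).

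Of 49 WNT genes, 7 (14.3%) were higher, among them WNT6 (2.41), the target SP5 (1.70) and RSPO4 on chromosome 20 (2.94), and the R-spondin receptor LGR5 was lower (-1.39). Among 69 TGF-beta, BMP and Notch genes 8 (11.6%) were higher and 0 lower, with BMP2 (1.63) and the Notch ligand JAG1 (1.58) on chromosome 20. The cytokine and growth factor receptor list also holds JAK-STAT signaling genes, such as the feedback inhibitor SOCS3. Of its 69 genes measured on all 4 arrays 7 (10.1%) were higher, including ERBB3 (1.96) and SOCS3 (1.57). The growth hormone receptor GHR was lower (-1.94). GHR read -2.97 and -3.31 with TIAR, -1.30 and -1.10 with HuR and -4.56 and -4.36 with GFP, with HuR the high line. GDF15, a stress-induced cytokine, and NUPR1, a stress-induced chromatin protein, were higher (1.56 and 1.56) with both GFP arrays nearer HuR, while 54 ATF4 targets and tRNA synthetases together had 4 (7.41%) higher, 1 (1.85%) lower and a median of -0.09. Over all tested members, the WNT list had 8 higher and 1 lower, against 3 and 0 without HuR 1, 3 and 0 without HuR 2, 4 and 1 with normexp and 2 and 1 in the authors' values. The TGF-beta, BMP and Notch list likewise had 10 higher and 1 lower, against 2 and 0 without HuR 1, 2 and 0 without HuR 2, 4 and 0 with normexp and 6 and 1 in the authors' values. The cytokine and growth factor receptor list likewise had 7 higher and 1 lower, against 2 and 0 without HuR 1, 1 and 0 without HuR 2, 6 and 1 with normexp and 3 and 1 in the authors' values. Calls were lost (limma adjusted p in brackets) without HuR 1 SP5 (0.0536), LGR5 (0.057), BMP2 (0.0512), JAG1 (0.056), SOCS3 (0.0531), GHR (0.0506), and without HuR 2 SP5 (0.06), LGR5 (0.06), BMP2 (0.0523), SOCS3 (0.055), GHR (0.058), GDF15 (0.0523), NUPR1 (0.0541). Values fell short of 2-fold (log2 difference in brackets) with normexp for BMP2 (0.999), and in the authors' values for SP5 (0.88), BMP2 (0.50), SOCS3 (0.67). Adjusted p-values were above the threshold (limma, in brackets) without the filter on dim probes for JAG1 (0.057).

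Of 79 cytosolic ribosomal protein genes, 0 were called in either direction by limma, 10 had an unadjusted p under 0.05, and the list had a median of 0.09, which was -0.02 under quantile normalization. Counted by any probe of a gene, this list had 1 higher and 1 lower. By the same count translation initiation factors had 0 and 5, histones 2 and 4, and DNA replication genes 5 and 1. Of 75 respiratory chain genes 1, NDUFA7, was lower. Of 45 translation initiation factors, 2 (4.44%) were lower, EIF2B5, the catalytic subunit of the exchange factor of eIF2 (-1.17), and EIF2D (-1.19), with a list median of -0.25. EIF2B5 read -0.27 and -0.03 with TIAR, 0.93 and 1.10 with HuR and -0.21 and 0.24 with GFP, with HuR high and GFP at the TIAR level. Of 55 DNA replication genes, 3 (5.45%) were higher, the licensing factors CDC6 (1.35) and CDT1 (1.31) and the thymidine kinase TK1 (1.17). Of 51 mitosis genes, 3 (5.88%) were higher, UBE2C (1.30), CDC25B (1.18) and SGO2 (1.05). CDC6, CDT1, UBE2C and CDC25B lie in the 4 chromosome stretches, which leaves 1 called gene in each list outside them, and without HuR 1 or HuR 2 neither list had a call. Of 61 histone genes, near-identical copies whose probes may not separate them, 2 (3.28%) were lower, H4C11 (-2.09) and H3C7 (-1.29). The histone median was -0.23, with 48 of 61 genes under 0. It depended on the TIAR array used, at -0.013 without TIAR 1 and -0.40 without TIAR 2. The calls of EIF2B5, EIF2D, CDC6, CDT1 and TK1 were lost without HuR 1 and also without HuR 2. The same held for UBE2C, CDC25B, SGO2, H3C7 and NDUFA7, while H4C11 was lost without HuR 1. H3C7 and NDUFA7 were also lost without TIAR 1, with log2 differences of -0.94 and -0.89. Differences were under 2-fold (log2 difference in brackets) with normexp for SGO2 (0.84), and in the authors' values for SGO2 (0.88). In other fits calls were lost (limma adjusted p in brackets) with 8 arrays in 1 fit for CDT1 (0.084), H3C7 (0.2), and without the filter on dim probes for H3C7 (0.11), NDUFA7 (0.085).

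Metabolic, lysosomal and transport lists held calls in both directions. Of 68 peroxisome and fatty acid breakdown genes measured on all 4 arrays, 5 (7.35%) were higher and 3 (4.41%) lower, with HSD17B4, the multifunctional enzyme of peroxisomal beta-oxidation (-1.15), and PECR (-1.28) among the lower. Of 39 glycolysis and hypoxia genes, hexokinase HK2 (-1.11) and NDRG1 (-1.28) were lower and ALDOC, in the chromosome 17 stretch, higher. Of 69 lysosome and autophagy genes, 5 (7.25%) were higher and 2 (2.9%) lower: TCIRG1, a subunit of the proton pump (2.52), and CD68 (2.0) were higher, and ATG10 (-1.32) and UVRAG (-1.08) lower. The metallothionein MT1F read 0.01 and 0.10 with TIAR, -2.67 and -2.76 with HuR and -0.79 and -0.22 with GFP, with HuR the low line (6.81-fold; SE 0.10 on the log2 scale; adjusted p = 0.0036, limma), and GSTZ1 was lower with TIAR (-1.58). Of 65 chaperones, 3 (4.62%) were higher, among them HSPB1 (1.16), and 1 (1.54%) lower, DNAJC12 (-1.20). Counted by any probe over all tested members, the chaperones had 4 higher and 5 lower. Of 90 solute carriers and channels, 12 (13.3%) were higher and 2 (2.22%) lower, and 7 of the 19 called among all tested members lie in the stretches. Over all tested members, the carrier list had 17 higher and 2 lower, against 6 and 0 without HuR 1, 6 and 0 without HuR 2, 10 and 2 with normexp and 7 and 2 in the authors' values. Of 84 actin cytoskeleton genes, 7 (8.33%) were higher, among them the troponin TNNT1 (2.18), and 2 (2.38%) lower, including smooth muscle actin ACTA2 (-1.64). Of 33 HOX genes, HOXA6 (1.60), HOXD1 (1.56) and HOXD8 (1.45) were higher and HOXA11 (-1.12) lower, and of 91 splicing factors and AU-rich element binding proteins 3 (3.3%) were called in each direction, TIAL1 and TIA1 among them. With 1 array fewer, genes missed the threshold (limma adjusted p in brackets) without HuR 1 HSD17B4 (0.073), PECR (0.067), HK2 (0.066), NDRG1 (0.063), ALDOC (0.097), ATG10 (0.0534), UVRAG (0.082, with a log2 difference of -0.96), HSPB1 (0.056), DNAJC12 (0.14), ACTA2 (0.072), HOXA11 (0.067), and without HuR 2 HSD17B4 (0.078), PECR (0.073), HK2 (0.067), NDRG1 (0.064), ALDOC (0.12), TCIRG1 (0.05), ATG10 (0.061), UVRAG (0.072), HSPB1 (0.071), DNAJC12 (0.16), ACTA2 (0.077), HOXA6 (0.068), HOXD1 (0.0512), HOXD8 (0.058), HOXA11 (0.069), and without TIAR 1 ALDOC (0.021, with a log2 difference of 0.90), DNAJC12 (0.021, with a log2 difference of -0.85), HOXA6 (0.067), and without TIAR 2 UVRAG (0.025, with a log2 difference of -0.98), HOXA6 (0.056). Values fell short of 2-fold (log2 difference in brackets) with normexp for HK2 (-0.98), ALDOC (0.90), ATG10 (-0.91), UVRAG (-0.64), and in the authors' values for HSD17B4 (-0.96), HK2 (-0.84), ALDOC (0.69), UVRAG (-0.94), HOXD1 (0.92), and with quantile normalization for ALDOC (0.99). The limma threshold was missed (adjusted p in brackets) with 8 arrays in 1 fit for ALDOC (0.1), DNAJC12 (0.0549), and without the filter on dim probes for ALDOC (0.07), UVRAG (0.0543), DNAJC12 (0.1), HOXA6 (0.085).

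Called genes also differed in the base composition of their probes. The median GC content was 45% for probes of genes called higher, 40% for those called lower and 43.3% for the rest. Among the genes measured on all 4 arrays, the share called lower went from 3.58% of the 3965 with the least probe GC to 0.807% of the 3964 with the most, and the share called higher from 5.12% to 6.38%. The part of GC content in the calls was not tested.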

How the data were processed

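RNA of 8 samples was hybridized to Agilent SurePrint G3 one-colour human arrays, and the 4 arrays of GFP-TIAR and GFP-HuR cells were compared, with the 2 GFP arrays shown beside them. The deposited scanner files hold intensity values, background-corrected by Feature Extraction 10.7.3.1 per the file headers, with probe positions on hg19. The authors also deposited a table of log2 values after quantile normalization, used here only as an alternative because the TIAR arrays there follow another distribution than the other 6. Here log2 of the processed signal minus the 75th percentile of its array was taken, without control or outlier spots, and repeated spots were averaged by probe. Probes with signal clearly over background in 1 line or both, on each of its arrays, were tested with limma 3.58.1 in R 4.3.3, with Benjamini-Hochberg adjustment over all probes tested, and each gene was represented by its probe with the highest mean signal. Calls needed a change of 2-fold or more with an adjusted p under 0.05. The code was tested on simulated data. Only 2 arrays a line limit the precision, and p-values measure the spread between these arrays.

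The genes named were TIAL1, TIA1 and ELAVL1, the 12 called genes that changed most in either direction among those measured on all 4 arrays, the 6 with the largest bound in each direction, both without the genes on the paper's lists and without unnamed transcripts, and up to 3 called members of each gene list in each direction; a few genes these rules name are not reported here, and further list members and genes of the chromosome stretches were named after their values were seen. The members and the gene lists were chosen with earlier results of these data known. Symbols were updated through RefSeq. The alternatives were normexp with an offset of 50, quantile normalization, the authors' values, other probe filters, all 8 arrays in 1 fit, a replicate block, leaving out each array, any probe of a gene, and the paired t-test named in the methods. Counting list members measured on all 4 arrays was chosen after seeing the data. Neither line was tested against GFP, since both comparisons would share the GFP arrays. The TIA1 arrays enter only the deviations by chromosome and the fit on 8 arrays.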

Additional observations from a re-analysis of the deposited data

How the results depend on the processing

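With 2 arrays a line, the counts depended on the processing while the named genes kept their direction. Normexp gave 945 higher and 330 lower genes, the authors' values 620 and 353, and all 8 arrays in 1 fit 979 higher, with 411 lower. Leaving out 1 array gave between 458 and 1757 higher and between 60 and 994 lower genes. Quantile normalization gave 1226 and 810, and the median difference over all genes was then -0.01, against 0.07 in the report, 0.13 with normexp and 0.23 without the filter on dim probes. Counting a gene by any of its probes gave 1883 and 769. The methods' paired t-test called 755 higher and 264 lower genes at 2-fold and its unadjusted threshold, and 0 and 0 after Benjamini-Hochberg adjustment. Limma had 9801 genes with an unadjusted p under 0.05, a count made without the 2-fold requirement. With a replicate block there were 1619 higher and 581 lower genes, but same-numbered arrays did not deviate together (correlation -0.01 over 29054 probes), so the numbers are not read as a pairing. The block kept the calls of all 148 named called genes. Of these, 123 kept the call with normexp, 145 with quantile normalization, 114 in the authors' values, 127 without the filter on dim probes, 123 with 8 arrays, 79 without HuR 1 and 73 without HuR 2, and none changed direction in any of these settings. ELAVL1, not called, ranged from -0.14 (without TIAR 2; adjusted p = 0.36, limma) to 0.46 (without TIAR 1) when 1 array was left out. The cause of these shifts was not tested.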
